A study of Sus scrofa with 6 samples.

Results

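Genes of the cell cycle and mitosis were compared between 6 clones of pig (Sus scrofa) keratinocytes, 3 of central corneal and 3 of conjunctival origin. The list of 60 genes was chosen by name, not by a threshold on measured values, but with earlier results of these data known. Of the 60 genes, 34 had a probe set whose only gene symbol was theirs, out of 6765 genes with such a probe set. The probe set with the highest mean over the 6 arrays stood for each gene. The list was read in 4 classes: 8 measured genes of DNA replication, 19 of mitosis, 2 G1 cyclins and kinases, and 5 inhibitors of cyclin-dependent kinases. The other 26 genes had no probe set named by them alone and were not analysed here. These were CCND1, CCND3, CCNE1, CCNE2, CDK4 and CDK6 of the G1 class, CDC6, CDT1, MCM6, MCM7, TK1, RFC4 and GINS2 of the replication class, and CDK1, BUB1, BUB1B, TTK, PLK4, KIF11, KIF23, KIF2C, CENPA, CENPE, MKI67, TPX2 and PRC1 of the mitotic class.

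All clones came from biopsies of white domestic pigs, for which the labels give a distance of 6 mm from the limbus, the border between cornea and conjunctiva. A feeder layer of irradiated mouse fibroblasts of the 3T3-J2 line supported the keratinocytes, and each clone was founded by 1 cell picked from a mass culture. No group was treated. The labels name the pigs AP1 and AP6, give no ages, and do not tie clones to animals, so clones of a tissue may share an animal and the p-values measure only the spread between these clones. The run files of all 6 arrays carry a project name that refers to an irradiation time course, whereas the labels mention irradiation of the feeder cells alone.

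Dividing cells copy their DNA in S phase and part the copies in mitosis. Cyclins bind and switch on cyclin-dependent kinases: D-type and E-type cyclins act towards the start of S phase, cyclin A through S phase and G2, and B-type cyclins at mitosis. Many of the genes are transcribed mainly in the phase in which their product acts, so their RNA is low in resting and in terminally differentiated cells. In the epithelia of the eye surface, division is largely a property of basal cells, and keratinocytes leave the cycle as they stratify.

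The expression values are log2 values made by the robust multi-array average (RMA) from porcine Affymetrix arrays, with each clone on an array of its own. The medians of the arrays lay between 4.40 and 4.48. The ratio of 3' to 5' signal of actin, a measure of RNA integrity on which higher means more degraded, was 1.07 on the log2 scale in the corneal clone labelled 2 (hereafter cornea 2), within the range of 0.46 to 1.11 over the 6 clones. For GAPDH it was 0.52 in cornea 2, in a range of 0.25 to 0.97. Of 27 keratinocyte markers 8 were measured, with a mean level of 9.46 to 10.42 per clone. DSP and CDH1, which encode desmoplakin and E-cadherin, averaged 12.09 and 11.10, PERP 13.24, SFN 12.86, PPL 10.34 and JUP 8.21. COL17A1 averaged 7.38, with 6.13 to 9.62 over the clones. ITGA6 averaged 3.60, below the median of all probe sets (4.45). The defining markers KRT5, KRT14 and TP63 were not analysed here. Mean levels per clone ran from 5.77 to 6.21 for 16 of 21 listed fibroblast or keratocyte markers, 4.33 to 4.96 for 7 of 10 melanocyte and 4.33 to 4.65 for 15 of 19 leukocyte markers. They ran from 4.47 to 4.78 for all 10 endothelial and from 3.95 to 4.13 for 5 of 11 goblet or secretory markers. Single genes lay well above these list means. VIM, THY1 and SPARC, listed as fibroblast markers, averaged 11.01, 10.82 and 9.28. The leukocyte markers LAPTM5, AIF1 and CORO1A averaged 7.65, 7.49 and 7.47, the endothelial markers PECAM1 and EGFL7 7.69 and 6.85, and the melanocyte marker GPNMB 6.80.

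Replication and mitotic genes were low together in 1 of the 6 clones, cornea 2. As a mean over each class of the deviation of each gene from its own 6-clone mean, replication genes stood at -0.91 in cornea 2 and between -0.05 and 0.38 in the others. Mitotic genes stood at -0.88 in cornea 2 and between -0.03 and 0.36 elsewhere. Cornea 2 had the lowest of the 6 values at 29 of the 34 genes, where it was lowest for 18.5% of all 23999 probe sets. It lay at least 2-fold below the mean of the other 5 clones at 15 of the 34 genes, against 0.671% of all probe sets. In a bulk extract, fewer dividing cells and less transcript per dividing cell cannot be told apart. These are descriptions of 1 clone, with no replicate of it and no test. The list was chosen with earlier results of these data known, and the count of lowest values was added after the data had been seen.

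**Figure D1:**
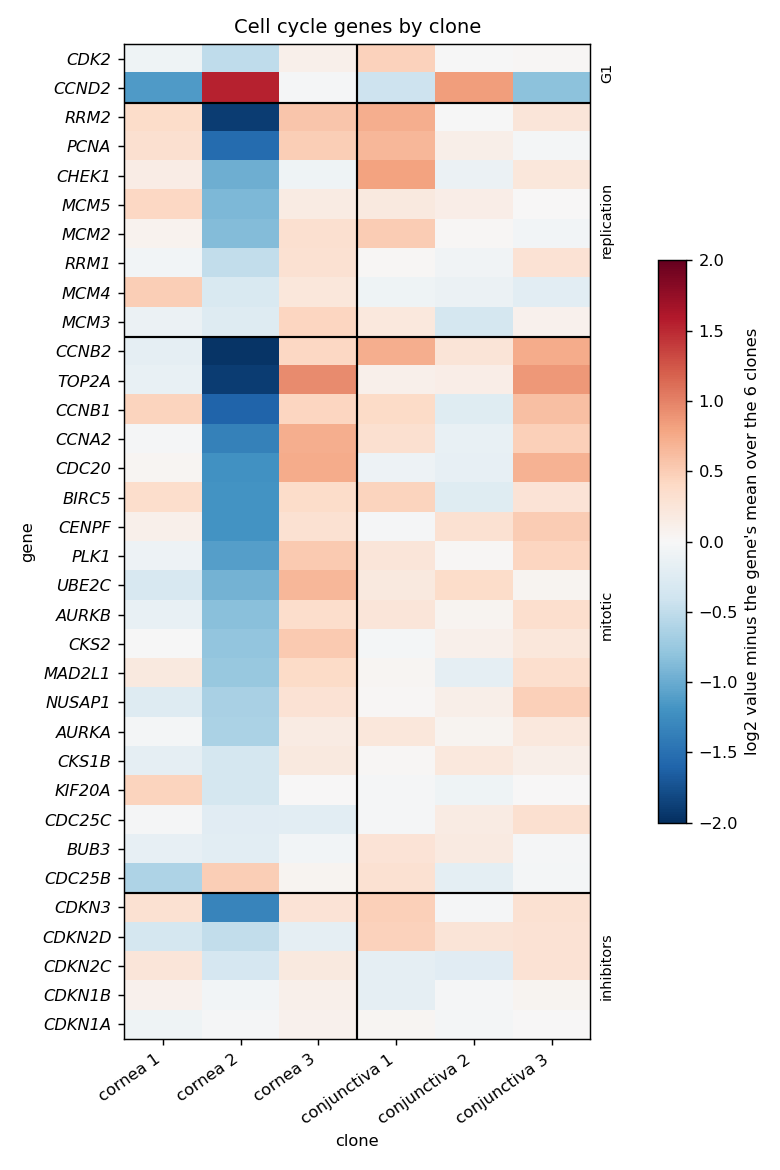
Heat map of the 34 measured cell cycle genes (rows, by class, with horizontal lines between classes) in the 6 clones (columns, the vertical line parting cornea from conjunctiva). Colour is the log2 value minus the gene's mean over the 6 clones. The column of cornea 2 is blue for most replication and mitotic genes and red for CCND2, which lies 1.85 above the mean of the other 5 there, while CCNB2 lies at -2.36 against that mean.

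No gene of the list differed between the tissues past the threshold. By limma with Benjamini-Hochberg adjustment over all probe sets, 0 of the 34 passed adjusted p 0.05, as did 0% of all probe sets, and the smallest adjusted p in the list was 0.9999. At an unadjusted p under 0.05, 3 of the 34 were higher in conjunctiva, CDKN2D, BUB3 and CDC25C, against 1.55% of all probe sets, and 0 were lower, against 1.15%. The 3 values of each tissue did not overlap for CDKN2D and BUB3, both higher in conjunctiva, as for 3.44% of all probe sets. No gene of the list was lower in conjunctiva without overlap, as 3.83% of all probe sets were. Of the 34 differences, 28 were above 0, against 49.2% of all probe sets. Without cornea 2, 16 were above 0 and 18 below, against 46.4% of all probe sets above 0. Leaving out cornea 2 also turned the sign of 14 of the 34 differences, and of 15.3% of those of all probe sets.

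Among replication genes, RRM2 and PCNA spread most over the 6 clones. RRM2, the small subunit of ribonucleotide reductase, was at 8.79, 6.52 and 8.97 in corneal clones 1, 2 and 3 and at 9.15, 8.41 and 8.65 in the conjunctival clones in the same order (log2). PCNA, the sliding clamp of DNA polymerases, was at 7.95, 6.10 and 8.13 in cornea and 8.30, 7.75 and 7.60 in conjunctiva. In both genes cornea 2 lay below all other clones, by 4.82-fold for RRM2 and 3.61-fold for PCNA against the mean of the other 5, while the remaining values of the tissues overlapped. The difference of RRM2, 8.74 ± 0.38 in conjunctiva and 8.09 ± 1.36 in cornea (SD, n = 3), was 0.64 (SE 0.64), and -0.14 without cornea 2. That of PCNA was 0.49 (SE 0.54), and -0.16 without cornea 2. RRM1, the large subunit of ribonucleotide reductase, varied least of the 8 replication genes by SD over the clones, from 7.83 in cornea 2 to 8.63 in cornea 3.

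The MCM genes, whose products form the helicase that opens DNA at origins, did not move as 1 unit. MCM2 was at 5.90, 4.97 and 6.15 in cornea and 6.34, 5.86 and 5.78 in conjunctiva. MCM5 was at 6.64, 5.32 and 6.39 in cornea and 6.43, 6.36 and 6.23 in conjunctiva. Both were lowest in cornea 2, by 2.05-fold and 2.12-fold against the other 5, and both tissue differences (0.32 and 0.22) were below 0 without that clone (-0.03 and -0.17). MCM3 was at 5.28, 5.13 and 5.83 in cornea and 5.61, 5.04 and 5.48 in conjunctiva, and is the replication gene for which cornea 2 was not the lowest. MCM4 was at 6.47, 5.66 and 6.20 in cornea and 5.89, 5.85 and 5.76 in conjunctiva. With cornea 2 set aside, both other corneal clones lay above all conjunctival clones for MCM4, a difference of -0.50 (limma unadjusted p = 0.0112, adjusted p = 0.9998), against -0.28 (SE 0.21) with all clones. The other MCM4 probe set, lowest in cornea 2 as well, differed by -0.01 with all clones. It was at 5.96, 4.41 and 5.24 in cornea and 5.61, 4.92 and 5.04 in conjunctiva. With cornea 2 set aside, conjunctiva 1 lay above cornea 3 there, while the other conjunctival clones lay below both corneal ones. With all clones, the further probe sets of MCM2 differed by -0.18 and -0.09, opposite in sign to the one above, and those of MCM5 by 0.16 and -0.22.

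CHEK1, the kinase that holds cells with damaged or unfinished DNA out of mitosis, was dim, with a mean of 4.01, below the array medians. It was at 4.16, 3.03 and 3.93 in cornea and 4.82, 3.89 and 4.24 in conjunctiva. Conjunctiva 1 was highest and cornea 2 lowest. The tissue difference was 0.61 (SE 0.35) with all clones, and 0.27 without cornea 2. The other CHEK1 probe set differed by -0.03 with all clones. It was at 4.46, 3.06 and 3.93 in cornea and 4.13, 3.75 and 3.49 in conjunctiva. There, with cornea 2 set aside, cornea 1 was the highest clone and conjunctiva 3 the lowest. Over the class, 6 of 8 genes were higher in conjunctiva with a median of 0.27. Without cornea 2, 1 of 8 was higher and the median was -0.15, beside medians of -0.002 and -0.01 over all probe sets.

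The widest gap of the list between cornea 2 and the other 5 clones was that of CCNB2, followed by TOP2A and RRM2. CCNB2, a B-type cyclin that activates the mitotic kinase, was at 6.37, 4.59 and 6.96 in cornea and 7.28, 6.80 and 7.29 in conjunctiva. CCNB1, its relative, was at 9.67, 7.63 and 9.65 in cornea and 9.60, 8.98 and 9.82 in conjunctiva. CCNA2, the cyclin of S phase and G2, was at 5.17, 3.85 and 5.92 in cornea and 5.52, 5.05 and 5.67 in conjunctiva. Cornea 2 was the lowest clone for all 3 cyclins, 5.12-fold below the mean of the other 5 for CCNB2, 3.78-fold for CCNB1 and 3.07-fold for CCNA2. Once cornea 2 was set aside, the tissue differences of the B-type cyclins had opposite signs, but no test compared the genes. The CCNB2 difference of 1.15 (SE 0.57) was then 0.46 (SE 0.24), with cornea 1 as the low value. That of CCNB1 went from 0.49 (SE 0.57) to -0.19 (SE 0.26), and that of CCNA2 from 0.43 (SE 0.50) to -0.13 (SE 0.29).

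TOP2A, the topoisomerase that untangles replicated chromosomes, was at 6.80, 5.06 and 7.90 in cornea and 7.06, 7.08 and 7.83 in conjunctiva. CENPF, a kinetochore protein, was at 6.36, 5.06 and 6.56 in cornea and 6.23, 6.55 and 6.76 in conjunctiva. Cornea 2 was lowest for both, by 4.83-fold and 2.70-fold. For TOP2A the clones labelled 3 were the highest in each tissue. The tissue differences were 0.73 (SE 0.67) for TOP2A and 0.52 (SE 0.39) for CENPF with all clones, and -0.03 and 0.05 without cornea 2.

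NUSAP1, which bundles spindle microtubules, was at 8.33, 7.95 and 8.88 in cornea and 8.62, 8.71 and 9.06 in conjunctiva, a difference of 0.41 (SE 0.25) that was 0.19 without cornea 2. BUB3, a spindle checkpoint protein, was at 8.20, 8.16 and 8.32 in cornea and 8.65, 8.55 and 8.35 in conjunctiva. The tissues did not overlap for BUB3, but cornea 3 and conjunctiva 3 were only 0.03 apart. Its difference of 0.29 (SE 0.12, limma unadjusted p = 0.0464, adjusted p = 0.9999) was 0.26 without cornea 2. CDC25C, a phosphatase that activates the mitotic kinase, was dim, at 3.63, 3.42 and 3.43 in cornea and 3.63, 3.82 and 3.97 in conjunctiva, below the array medians. Its difference was 0.31 (SE 0.13, limma unadjusted p = 0.0479, adjusted p = 0.9999).

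CKS1B and CKS2 encode the small partner subunits of cyclin-dependent kinases. CKS1B was at 8.49, 8.32 and 8.86 in cornea and 8.70, 8.88 and 8.79 in conjunctiva. CKS2 was at 9.49, 8.72 and 10.03 in cornea and 9.46, 9.60 and 9.73 in conjunctiva. Cornea 2 was the lowest for both, by 1.35-fold for CKS1B and 1.92-fold for CKS2. Their tissue differences of 0.23 (SE 0.16) and 0.18 (SE 0.31) were 0.11 and -0.16 without that clone.

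A further 8 mitotic genes had their lowest value in cornea 2. They encode the mitotic kinases AURKA, AURKB and PLK1, the anaphase-promoting complex activator CDC20 and its ubiquitin-conjugating enzyme UBE2C, the checkpoint protein MAD2L1, the chromosomal passenger BIRC5 (survivin) and the kinesin KIF20A. Cornea 2 lay below the mean of the other 5 by amounts from 0.41 for KIF20A to 1.46 for CDC20, and their tissue differences ran from -0.07 to 0.46. Of the whole class, 18 of 19 genes were higher in conjunctiva, with a median of 0.33. Leaving out cornea 2 left 11 above 0 and 8 below, around a median of 0.03 and in a range of -0.26 to 0.46. The exception in cornea 2, named after its values were seen, was CDC25B, a phosphatase that activates cyclin-dependent kinases. It was at 7.32, 8.43 and 7.99 in cornea and 8.24, 7.74 and 7.90 in conjunctiva, with cornea 2 the highest.

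**Figure D2:**
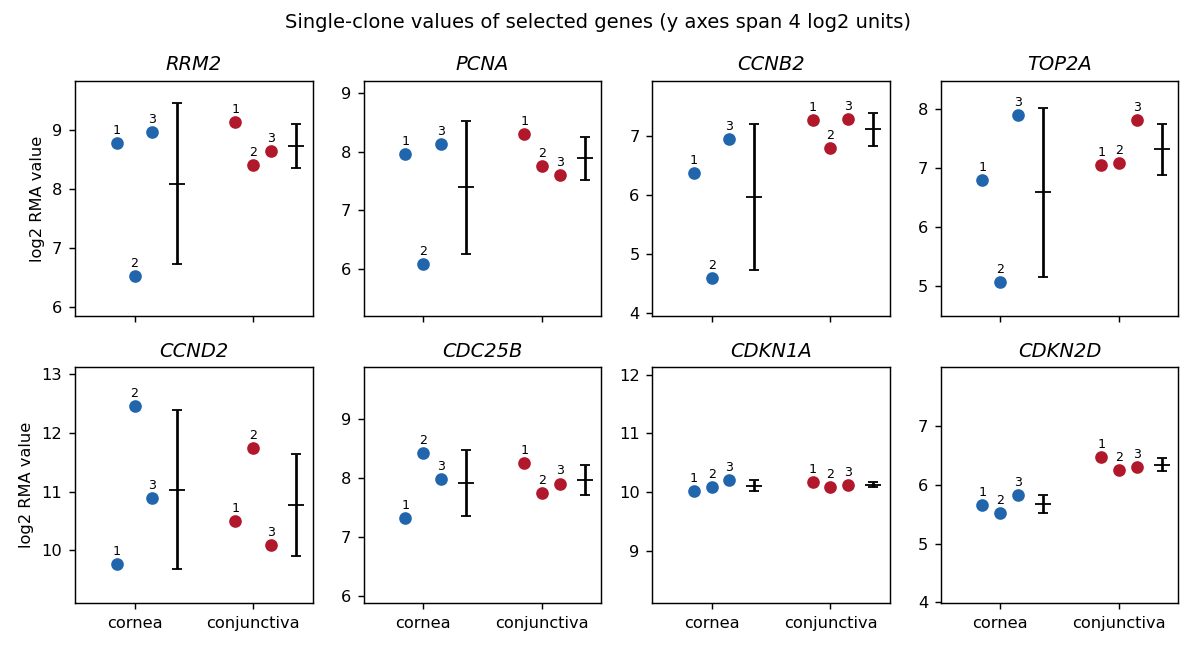
Log2 RMA values of 8 genes in corneal (blue) and conjunctival (red) clones, numbered as labelled, with the mean and SD of each tissue (black, n = 3). Every y axis spans the same length of 4 log2 units. Cornea 2 lies apart below for RRM2, PCNA, CCNB2 and TOP2A and is the highest clone for CCND2 and CDC25B, CDKN1A is nearly level, and CDKN2D is higher in every conjunctival clone.

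The G1 genes went different ways. CCND2, a D-type cyclin that starts the passage through G1, was at 9.77, 12.45 and 10.89 in cornea and 10.49, 11.75 and 10.08 in conjunctiva. In each tissue the clone labelled 2 was the highest, and cornea 2 stood 3.60-fold above the mean of the other 5. With CDC25B, it was 1 of 2 genes of the list that were highest in cornea 2, as were 13.0% of all probe sets. The tissue difference of CCND2 was -0.26 (SE 0.72), and 0.45 without cornea 2. CDK2, the kinase partner of cyclins E and A, was at 6.41, 5.98 and 6.60 in cornea and 6.96, 6.49 and 6.51 in conjunctiva, lowest in cornea 2. Its difference was 0.32 (SE 0.20), or 0.15 without cornea 2, and its other 2 probe sets differed by 0.16 and 0.32.

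Among inhibitor genes, CDKN2D parted the tissues, CDKN3 followed the mitotic class, and CDKN1A and CDKN1B varied little. CDKN2C had an SD of 0.27 over the clones, beside a median of 0.22 over all genes. CDKN2D, an INK4 inhibitor of the G1 kinases CDK4 and CDK6, was at 5.66, 5.52 and 5.83 in cornea and 6.47, 6.26 and 6.30 in conjunctiva. Every conjunctival clone lay above every corneal clone, at 6.34 ± 0.11 against 5.67 ± 0.15 (SD, n = 3), a 1.59-fold difference. The difference of 0.67 (SE 0.12, 95% interval 0.38 to 0.97) had an unadjusted p of 0.00111 and an adjusted p of 0.9999 by limma. It was 0.60 without cornea 2 and ran from 0.60 to 0.75 over the fits that left out 1 clone each.

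CDKN3, a phosphatase that removes the activating phosphate from cyclin-dependent kinases and is transcribed late in the cycle, was at 8.67, 7.05 and 8.63 in cornea and 8.84, 8.34 and 8.67 in conjunctiva. Cornea 2 lay 2.98-fold below the mean of the other 5, and the tissue difference of 0.50 (SE 0.44) was -0.03 without it. CDKN1A, which encodes p21 and is induced by p53, was at 10.03, 10.10 and 10.21 in cornea and 10.17, 10.08 and 10.13 in conjunctiva. The 6 clones thus lay within 0.18 of each other for CDKN1A, cornea 2 included, and the tissue difference was 0.01 (SE 0.10, 95% interval -0.23 to 0.25). CDKN1B, which encodes p27, was at 4.31, 4.16 and 4.33 in cornea and 4.05, 4.19 and 4.28 in conjunctiva, below the array medians. CDKN2C, the INK4 relative of CDKN2D, was at 5.21, 4.63 and 5.16 in cornea and 4.78, 4.74 and 5.24 in conjunctiva. Cornea 2 was its lowest clone, by 1.32-fold against the mean of the other 5, and its tissue difference without cornea 2 was -0.26. Unlike for CDKN2D, the tissues overlapped for CDKN2C, and the differences were -0.08 (SE 0.21) for CDKN2C and -0.09 (SE 0.11) for CDKN1B. The other 2 CDKN1B probe sets had the opposite sign.

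**Figure D3:**
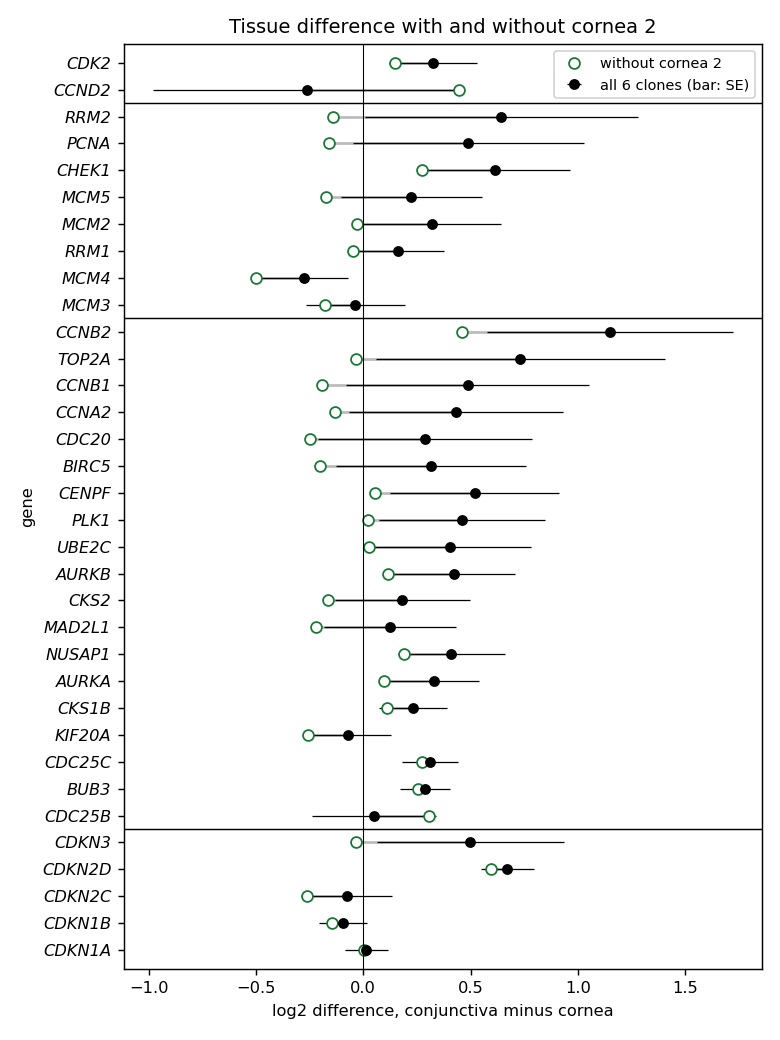
Log2 difference of conjunctiva minus cornea for each of the 34 genes with all 6 clones (filled, bar: SE from limma) and without cornea 2 (open), by class. Without cornea 2 the values of most replication and mitotic genes move towards or past 0. Then 16 of the 34 genes lie to the right of 0, among them CDKN2D, BUB3, CDC25C, CCNB2, CCND2, CDC25B and CHEK1.

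The replication and mitotic classes were low to a like degree in cornea 2. The mitotic mean minus the replication mean was 0.02 there, in the middle of the range of the other clones. In the other clones this balance was -0.24 in cornea 1, 0.06 in cornea 3, -0.21 in conjunctiva 1, 0.09 in conjunctiva 2 and 0.28 in conjunctiva 3. Cornea 1 and conjunctiva 1 were thus both tilted towards replication genes and conjunctiva 3 towards mitotic genes. By tissue the balance was -0.05 ± 0.16 in cornea and 0.05 ± 0.24 in conjunctiva (SD, n = 3), a difference smaller than the spread between clones. Inhibitor genes as a class stood at -0.44 in cornea 2, where CDKN3 and CDKN2D contributed most, and between -0.01 and 0.19 in the others. The spread of a gene over the clones, as highest minus lowest, had a median of 1.24 over all 6 clones, and of 0.59 over the 5 without cornea 2. Of the 34 genes, 21 spanned at least 1 log2 unit over the 6 clones, and 2 (CCND2 and TOP2A) over the 5. Cornea 2 was the lowest clone at 29 of the 34, so leaving it out narrows the spread at those genes in any case.

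**Figure D4:**
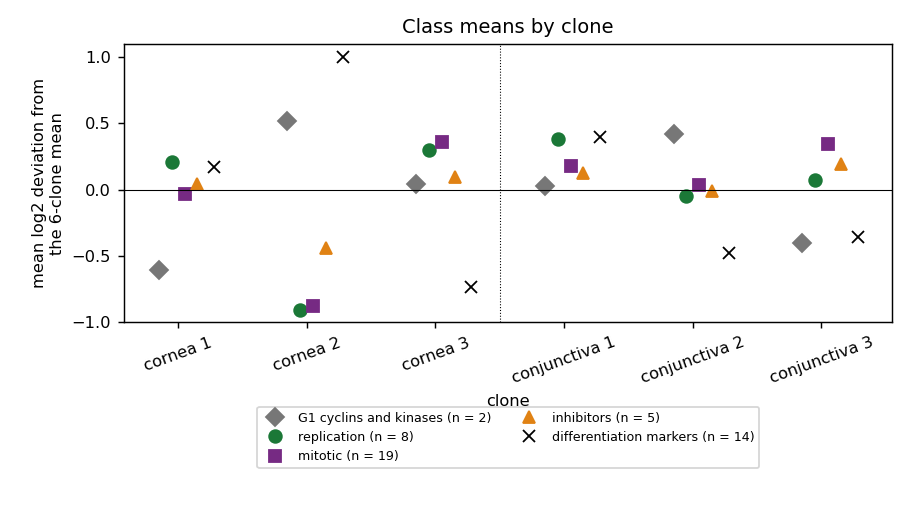
Mean over each class of the log2 deviation of a gene from its mean over the 6 clones (y axis), by clone (x axis), for the 4 classes of cell cycle genes and for 14 keratinocyte differentiation markers (crosses). In cornea 2 the replication and mitotic means lie at -0.91 and -0.88 and the differentiation mean at 1.00.

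Clones with the same number in the labels deviated together across all probe sets, and by that pairing the difference between tissues was not even. In the pairs labelled 1, 2 and 3, 23, 30 and 12 of the 34 genes were higher in the conjunctival clone, with median differences of 0.25, 0.81 and -0.06. CHEK1, CCNB2, AURKA, NUSAP1, BUB3, CDKN2D and CDKN3 were higher in conjunctiva in all 3 pairs, 7 of 34 genes against 12.2% of all probe sets. For CHEK1, AURKA and NUSAP1 this held only for the probe set with the highest mean, on which the block p-values also rest. On the other probe set of each, cornea 1 lay above conjunctiva 1. With all clones, those probe sets differed between the tissues by -0.03, -0.04 and 0.14. Of 13 further probe sets of the list, 5 had the sign of the first. No gene of the list was lower in all 3 pairs, as were 13.1% of all probe sets. With the clone number as a block, 4 of 34 genes had an unadjusted p under 0.05 by limma (CDKN2D, CHEK1, CCNB2 and NUSAP1), against 5.02% of all probe sets. The smallest adjusted p in the list was then 0.938. Without cornea 2 and without the block, 2 of 34 (CDKN2D and MCM4) had an unadjusted p under 0.05, against 3.40% of all probe sets.

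The arrays were processed on 2 fluidics stations, the wash and stain instruments. With the station as a block, the median difference was 0.24 for replication and 0.33 for mitotic genes. Within station 1, which held cornea 1 and conjunctival clones 2 and 3, the medians were -0.18 and 0.26. Within station 2, which held cornea 2, cornea 3 and conjunctiva 1, they were 0.68 and 0.41. Cornea 2 is in the corneal mean of station 2 only. CDKN2D differed by 0.62 and 0.79 within the stations, each with 1 array of 1 tissue.

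Beyond the list, 105 other measured genes of the pathway showed the same clone standing apart in part of their number. Of 31 other replication genes cornea 2 was lowest at 17, and of 38 other mitotic genes at 28, against 18.5% of all probe sets. The gaps were smaller than in the list. Their medians against the mean of the other 5 were -0.35 and -0.60, where those of the list were -1.06 and -0.996. The genes named next were picked for the smallest p or the largest SD over these same clones. ORC1, the largest subunit of the origin recognition complex, was at 5.51 in cornea 2 and between 6.71 and 7.42 in the other clones. ASF1B, a histone chaperone of replicating chromatin, was at 3.94 in cornea 2 and 4.88 to 5.56 elsewhere, and the maintenance DNA methyltransferase DNMT1 was at 6.08 and 7.05 to 8.15. FEN1, the flap endonuclease, and RFC5, a clamp loader subunit, were 1.53-fold and 1.13-fold lower in cornea 2 than the mean of the other 5. Among mitotic genes, CDCA3 was at 4.76 in cornea 2 and 6.39 to 6.66 in the others, SKA2, of the kinetochore, at 6.53 and 7.79 to 8.41, and STMN1, which destabilises microtubules, at 7.14 and 7.74 to 9.15. HMGB2, a chromatin protein, and CDC26, of the anaphase-promoting complex, were 2.90-fold and 1.44-fold lower. None of these 105 passed adjusted p 0.05, and 2 had an unadjusted p under 0.05 by limma, CDC26 (difference 0.42, SE 0.16) and BTG2 (-0.45, SE 0.18). Over all probe sets the share with such a p was 2.70%, so 2 of 105 is not above it.

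The regulators that were measured, 18 of 34 listed, did not follow as a list. E2F1, E2F2, E2F4, RB1, RBL1 and TFDP1 were among those not analysed here. Cornea 2 was lowest at 4 of the 18 and highest at 5, against 18.5% and 13.0% of all probe sets. The median against the mean of the other 5 was -0.02, beside -0.03 over all probe sets. MYBL2, a transcription factor of dividing cells, was 1.71-fold lower in cornea 2, while MYC, CUL1 and CCNI were 1.38-fold, 1.44-fold and 1.59-fold higher. E2F3 and TFDP2, which encode an E2F factor and an E2F partner, were 0.11 and 0.19 above the mean of the other 5.

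Further inhibitor and checkpoint genes, 18 measured of 25 listed, leaned weakly the opposite way in cornea 2. Their median was 0.15 above the mean of the other 5, where percentile 75 of all probe sets was 0.11. Cornea 2 was lowest at 2 of the 18 and highest at 5, against 18.5% and 13.0% of all probe sets. The genes named next were picked for the smallest p or the largest SD over these same clones. CCNG2, a cyclin found in resting cells, was at 7.46 in cornea 2 and 5.81 to 6.85 in the other clones. The INK4 gene CDKN2B, SESN1 and the antiproliferative genes BTG1 and BTG2 were 1.62-fold, 1.61-fold, 1.41-fold and 1.60-fold above the mean of the other 5. BTG2 was at 8.12, 8.48 and 7.82 in cornea and 7.75, 7.56 and 7.76 in conjunctiva, without overlap. WEE1, the kinase that restrains entry into mitosis, was 1.31-fold lower in cornea 2, and its tissue difference was 0.49 (SE 0.21).

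**Figure D5:**
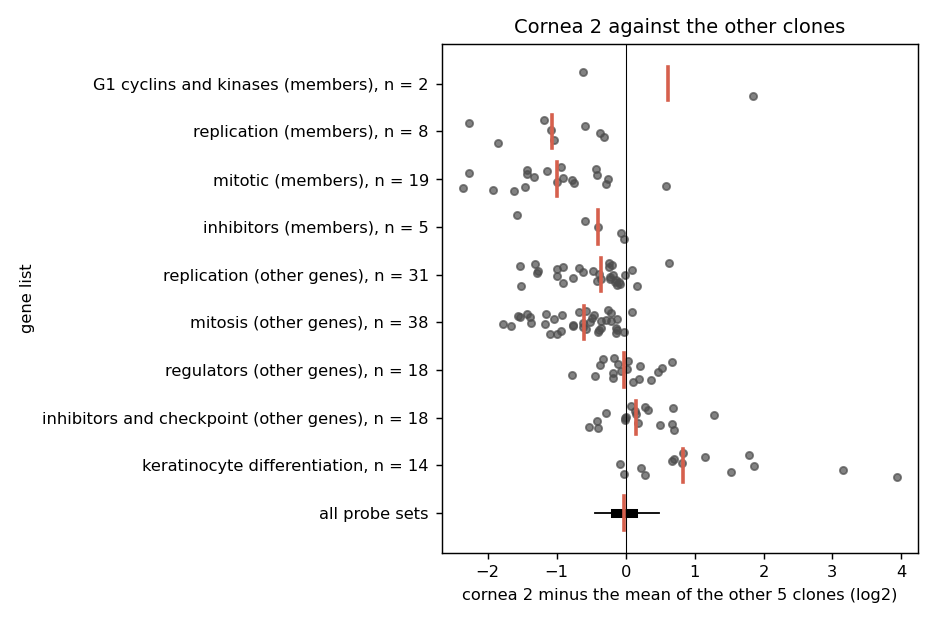
Cornea 2 minus the mean of the other 5 clones on the log2 scale (x axis) for each gene (points) of the 4 classes, the 4 lists of other pathway genes and the differentiation markers, with list medians (red). For all probe sets the thick bar spans percentiles 25 to 75 and the thin line 5 to 95 (-0.45 to 0.49); the medians of replication and mitotic genes lie at -1.06 and -0.996.

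Keratinocyte differentiation markers were high in cornea 2 as a list, though not each of them. Of 46 listed, 14 were measured, and cornea 2 was the highest clone at 8 of them and the lowest at 0. Over all probe sets these shares were 13.0% and 18.5%. The median of cornea 2 against the mean of the other 5 was 0.83. Their mean deviation was 1.00 in cornea 2, 0.17 and -0.73 in cornea 1 and 3, and 0.39, -0.48 and -0.35 in conjunctiva 1, 2 and 3. KRT1, the keratin of suprabasal epidermal cells, and CST6, a protease inhibitor of cornified layers, were 3.93 and 3.15 above the mean of the other 5 clones in cornea 2. KLK7 and IVL, which encode a shedding protease and involucrin, were 1.87 and 1.52 above it, although IVL was highest in conjunctiva 1. KLK7 was nearly level between cornea 2 (12.05) and conjunctiva 1 (12.03). S100A9, S100A8 and S100A12 lay 1.79, 1.15 and 0.83 above the mean of the other 5 in cornea 2. S100A9 was nevertheless highest in conjunctiva 2, at 13.27 against 13.07 in cornea 2. Others of the list were nearly level, with KRT10 at 0.29, CALML5 at 0.22, KRT2 at -0.02 and PI3 at -0.08. The order was not a simple mirror among the rest, since conjunctiva 1 was next in differentiation markers and had the highest replication mean of all. Fibroblast, melanocyte, leukocyte and endothelial markers deviated in cornea 2 by 0.11, 0.37, 0.01 and 0.03 as list means, and goblet markers by -0.002. The melanocyte mean there rests on GPNMB, 2.02 above the other 5, and MITF, 0.81 above, while TYR, TYRP1 and SOX10 lay at -0.06, -0.09 and 0.04 against them. Among fibroblast markers SPARC was 1.76 above the other 5 in cornea 2, and VIM at -0.12. The part of these lists in the levels of the cell cycle genes was not tested.

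With 3 arrays per tissue the precision was limited. The 95% interval of the tissue difference lay within 2-fold either way for 16 of the 34 genes and within 4-fold for 31. Without cornea 2 these counts were 30 and 34. Of the 34 genes 3, CHEK1, CDC25C and CDKN1B, had a mean below the median of all probe sets (4.45).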

How the data were processed

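Total RNA of 6 clones was amplified, labelled with biotin and hybridised to 1 array each. The deposited values are log2 values that the authors made with RMA, per the submitters' processing notes. Its version and the arrays normalised together are not given in the sources used here. RMA includes quantile normalisation, which gives every array the same distribution, so shifts common to most transcripts are removed. Without 124 control probe sets, 23999 were tested, with no filter on low values. Array annotation gave 10069 probe sets 1 symbol, 198 several and 13732 none.

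Conjunctiva minus cornea was fitted with limma 3.58.1 in R 4.3.3 (lmFit, eBayes), two-sided, over all probe sets, with Benjamini-Hochberg adjustment at 0.05, and checked on simulated data. Classes and lists are described by counts, medians and class means per clone, without a test. The labels do not explain the clone numbers. Deviations of same-numbered clones correlated (r = 0.354, 0.169 and 0.349 across probe sets), so the number was also fitted as a block. Alternatives were leaving out each clone, the station, the module number as a random block (statmod 1.5.0), median centring, trend and robust options, a filter on dim probe sets and the median over the probe sets of a gene.

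Members and lists were chosen with earlier results of these data known. The genes given clone by clone were all inhibitors, the 4 of smallest p and the 4 of largest SD per class, and the cyclin B, CENP, MCM and CKS families; outside the list, the 3 of smallest p and 3 of largest SD per list. PPL stands on both the keratinocyte and the differentiation list. No sequences were used here.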

Additional observations from a re-analysis of the deposited data

How the results depend on the processing

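The count of genes of the list past adjusted p 0.05 was 0 in every alternative run. The count of all probe sets past it was 0 as well, also without 1 clone each (0 to 0), except for 2 with the trend and robust options and 1 with 1 probe set per gene. With the clone number as a block both counts were 0, and the block changed no call. The number of the 34 genes higher in conjunctiva was 16 to 30 over the fits without 1 clone each, 16 being without cornea 2. The count of genes lowest in cornea 2 was added after the data had been seen, and so were the alternatives of the sign count. It was 29, and 27 to 28 under the alternatives run.

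Of the 34 genes, 19 had a difference that changed sign in any of the fits without 1 clone each. Among the genes given clone by clone under the naming rule, these differences ran from -0.89 to 0.45 for CCND2, -0.16 to 0.86 for PCNA, -0.030 to 0.56 for MCM2, -0.18 to 0.17 for MCM3, -0.17 to 0.48 for MCM5 and -0.14 to 1.08 for RRM2. They ran from -0.13 to 0.91 for CCNA2, -0.19 to 0.83 for CCNB1, -0.032 to 1.39 for TOP2A, -0.16 to 0.49 for CKS2, -0.028 to 0.063 for CDKN1A, -0.26 to 0.027 for CDKN2C and -0.033 to 0.77 for CDKN3. Among the other genes they ran from -0.05 to 0.36 for RRM1, -0.25 to 0.73 for CDC20, -0.25 to 0.31 for CDC25B, -0.22 to 0.34 for MAD2L1, -0.26 to 0.14 for KIF20A and -0.20 to 0.58 for BIRC5. Within station 1, where cornea 1 is the lone corneal array, the sign turned for 10 of the 34 genes, CCND2 (1.14), PCNA (-0.28), MCM2 (-0.076), MCM5 (-0.34), RRM2 (-0.26), CHEK1 (-0.10), CCNB1 (-0.27), CDKN3 (-0.16), MAD2L1 (-0.11) and BIRC5 (-0.34), and the G1 median was 0.62. KIF20A turned to 0.14 within station 2. MCM3 turned to 0.13 there and to 0.055 with the station as a block. With the median over the probe sets of a gene, MCM2 turned to -0.037 and CDKN1B to 0.084. With only probe sets at or above the median mean, 31 of the 34 genes were left and the inhibitor median was 0.26, since CDKN1B dropped out. The cause of the other shifts was not tested. The number of arrays limits precision.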
